A study of Mus musculus with 4 samples.

Results

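Sperm chromatin and seminal vesicle transcripts are 9 genes of the male reproductive tract whose levels were read in epididymal adipose tissue, the fat pad attached to the epididymis, as signs of neighbouring tissue. They were given as a list: the sperm genes Prm1, Prm2, Tnp1, Tnp2, Smcp and Odf1 and the seminal vesicle genes Svs2, Svs4 and Svs5. Of these 9 genes, 8 had a probe set with a single gene symbol, out of 18820 such genes in all. Prm2 has only probe set 10437680, which the platform annotation lists for both Prm2 and Wdr19, so no level is given for Prm2. No filter on level was used to choose them. They and the wider lists below were chosen with earlier results of these data known. The shares of all genes set beside their counts are thus a description and not a test.

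The RNA came from CD1d-/- (KO) mice fed a low-fat diet (2 arrays, KO1 and KO2), from wild type mice fed a high-fat diet (1 array, WT-HF) and from wild type mice fed the low-fat diet (1 array, WT-LF), all of the C57BL/6 strain. CD1d presents lipid antigens to natural killer T cells, and the line without it had 10 to 12 generations of backcrossing to C57BL/6J behind it. All mice ate chow up to 10 to 11 weeks of age and then a diet with 10 kcal% (low-fat) or 45 kcal% (high-fat) of fat for 18 to 19 weeks. Each group's RNA was pooled from 4 to 6 mice. Whether KO1 and KO2 hold separate pools is not stated, so the p-values rest on a spread between these 2 arrays that may be technical only.

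Late in sperm formation the histones of the spermatid are replaced first by transition proteins (Tnp1, Tnp2) and then by protamines (Prm1, Prm2), small arginine-rich proteins that compact sperm DNA. Smcp encodes a cysteine-rich protein of the mitochondrial sheath of the sperm, and Odf1 a protein of the outer dense fibres of its tail. Their messages are made in testicular germ cells, and mature sperm, which are stored in the epididymis, carry remnants of them. The seminal vesicle is an androgen-dependent gland that secretes most of the fluid of the mouse ejaculate. Svs2, Svs4 and Svs5 encode abundant secreted proteins of that gland, and the Svs2 product forms the copulatory plug.

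Prm1, Tnp2 and Prm2 are neighbours on chromosome 16, with Prm3 among them, and Tnp1, Smcp and Odf1 lie apart on chromosomes 1, 3 and 15. Svs2, Svs4 and Svs5 are part of 1 cluster on chromosome 2, in the gene order Svs2, Svs3b, Svs4, Svs3a, Svs6 and Svs5. Sequences before the transcription start were available from RefSeq (build GRCm38.p6) for 8 of the 9 genes, all but Odf1. The 120 bases that end just before the start are printed for the 3 chromatin genes and the 3 Svs genes that have levels, because the members of each of these sets shared an array order. Capitals in the sperm genes mark TGANGTCA on either strand, a cAMP response element with its middle base left free, since the factor CREM activates many spermatid genes through such elements.
Prm1 (chr16:10796824-10796943, minus strand): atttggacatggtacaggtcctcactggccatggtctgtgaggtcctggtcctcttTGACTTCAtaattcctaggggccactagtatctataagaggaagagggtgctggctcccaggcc
Tnp1 (chr1:73015900-73016019, minus strand): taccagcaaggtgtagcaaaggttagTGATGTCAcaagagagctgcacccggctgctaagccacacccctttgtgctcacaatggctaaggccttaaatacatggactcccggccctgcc
Tnp2 (chr16:10788656-10788775, minus strand): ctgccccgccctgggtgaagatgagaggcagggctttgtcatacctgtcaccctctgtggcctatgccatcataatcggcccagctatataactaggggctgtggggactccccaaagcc
Capitals in the seminal vesicle genes mark TATAAA on either strand.
Svs2 (chr2:164238342-164238461, minus strand): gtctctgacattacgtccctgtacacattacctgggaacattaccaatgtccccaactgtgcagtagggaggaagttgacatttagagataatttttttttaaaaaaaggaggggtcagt
Svs4 (chr2:164278308-164278427, minus strand): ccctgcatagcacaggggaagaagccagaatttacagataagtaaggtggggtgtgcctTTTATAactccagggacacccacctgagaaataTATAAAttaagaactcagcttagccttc
Svs5 (chr2:164332645-164332764, plus strand): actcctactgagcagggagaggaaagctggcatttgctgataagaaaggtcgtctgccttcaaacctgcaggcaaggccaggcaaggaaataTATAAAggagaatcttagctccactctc
In the 250 bases before the start, TGANGTCA was found in Prm1 (64 to 57 bases before the start) and Tnp1 (94 to 87 bases before it), which are 2 of the 8 genes, and in 7.59% of the 27025 genes with a promoter in the table. The full element TGACGTCA, which the freer motif includes, was found in 0 of the 8 and in 1.62% of all. TATAAA was found in Svs2, Svs4, Svs5 and Prm2 and in 13.0% of all, and in both Svs4 and Svs5 a match lay 28 to 23 bases before the start. The motifs were chosen with the sequences in view, and a match is a description of the letters and not of binding.

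All levels below are log2 intensities, and every difference is a log2 difference unless a fold is named. The median over all probe sets was 5.71 on KO1, 5.68 on KO2, 5.68 on WT-HF and 5.7 on WT-LF. A level under its array's median is called low signal here; no detection calls were used. Cd1d1, the gene disrupted in KO mice, was at 3.74 and 3.98 on the KO arrays, against 11.80 on WT-HF and 11.80 on WT-LF. Its KO minus WT-LF difference of -7.95, with a standard error of 0.24, had an adjusted p = 0.0932 in limma over all genes and of 0.00646 after a filter on level. The disrupted gene itself thus missed the threshold of 0.05 over all genes, and a member that missed it is not shown to be unchanged. All 11 measured adipocyte identity genes lay over the array median on every array, as did 10094 of all 18820 genes. The levels of these 11 ran from 11.38 to 13.48. In bulk tissue, fewer cells of a type and less RNA per cell cannot be told apart.

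The 5 measured sperm genes shared 1 order at its ends: each was highest on KO1 and lowest on KO2, with both wild type arrays between. Prm1 was at 9.98 on KO1 and 7.36 on KO2, against 8.63 on WT-HF and 8.51 on WT-LF. The KO arrays lay on both sides of the wild type arrays, and 2.63 apart, a 6.18-fold difference between 2 arrays of 1 genotype and diet.

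Tnp2, the transition protein gene next to the protamines on chromosome 16, followed the same course, at 7.51 and 5.21 on KO1 and KO2, 6.22 on WT-HF and 5.79 on WT-LF. Tnp1, the other transition protein gene, was at 6.46 and 4.88 on the KO arrays, 5.58 on WT-HF and 5.26 on WT-LF. KO1 was the high array in both genes and KO2 the low one. Tnp1 lay under the array median on every array but KO1, and Tnp2 on KO2, so their distances between the KO arrays, 2.99-fold and 4.93-fold, rest in part on low signal.

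The sperm mitochondrial gene Smcp was at 9.30 and 7.84 on KO1 and KO2, 8.09 on WT-HF and 8.71 on WT-LF. The tail fibre gene Odf1 was at 8.31 and 7.12 on the KO arrays, 7.40 on WT-HF and 7.86 on WT-LF. Both were higher on KO1 than on KO2, 2.75-fold for Smcp and 2.29-fold for Odf1, and in both WT-HF was the lower of the wild type pair. Prm1, Tnp1 and Tnp2 had WT-HF as the higher one.

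**Figure D1:**
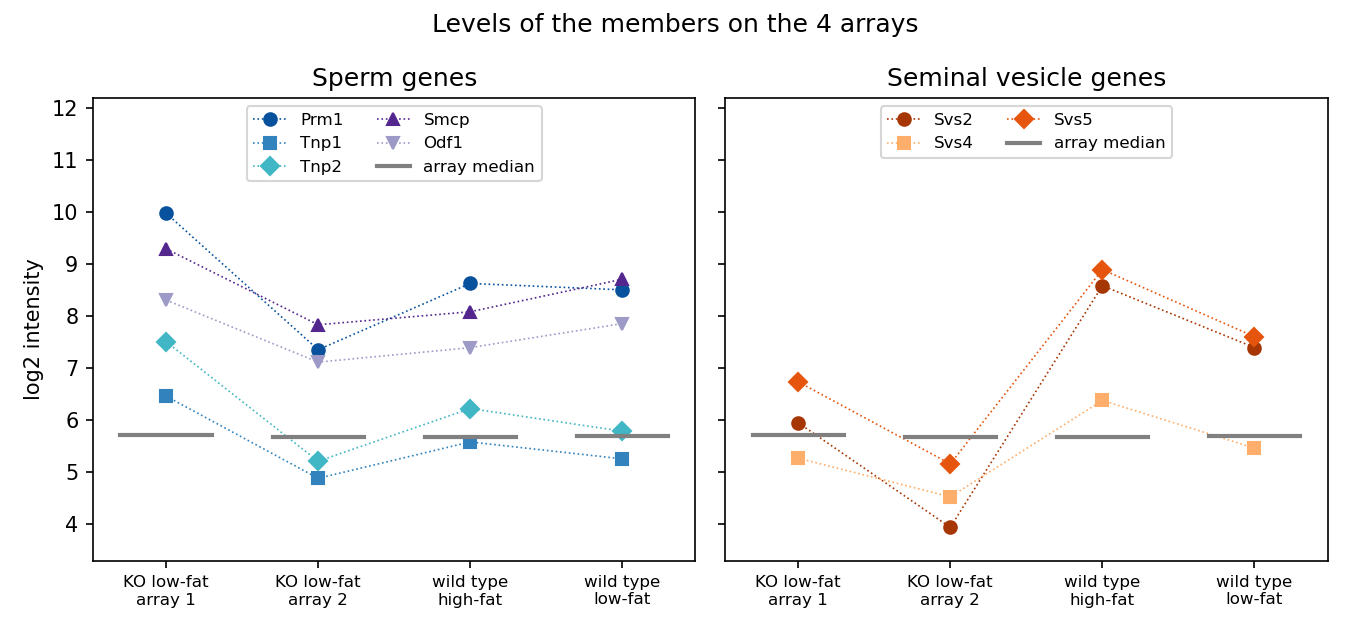
Log2 intensity (vertical axis) of the 5 measured sperm genes (left) and the 3 seminal vesicle genes (right) on each of the 4 arrays, with a grey bar at each array's median over all probe sets and dotted lines joining the values of 1 gene. The sperm genes peak on KO1, with Prm1 at 9.98, while the seminal vesicle genes peak on WT-HF, with Svs5 at 8.90; both sets are lowest on KO2.

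All 8 measured members differed at least 1.5-fold between the KO arrays, where 13.7% of all genes did. All 5 sperm genes were at least 1.5-fold higher on KO1 than on KO2, by 1.19 to 2.63, where 4.00% of all 18820 genes were, and 0 of 5 were lower (9.69% of all genes). The order with KO1 highest and KO2 lowest held for 5 of 5, and for 9.56% of all genes. The median over the 5 was 1.58, against -0.01 over all genes.

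In KO fat set against WT-LF, the sperm genes differed by less than the KO arrays did from each other. The KO mean of Prm1 was 8.67 ± 1.86 (SD, n = 2), 0.16 above the WT-LF level with a standard error of 1.16. For the other 4 the KO mean minus the WT-LF level was 0.42 (Tnp1), 0.57 (Tnp2), -0.15 (Smcp) and -0.14 (Odf1). In all 5 the direction against WT-LF turns with the KO array left out: with KO1 alone Prm1 was 1.48 above it, and with KO2 alone the difference was -1.15. In limma, fitted to all 18820 genes with Benjamini-Hochberg adjustment, none of the 5 passed the threshold of 0.05, and each had an adjusted p = 0.9999. The same fit called 0 of all genes in either direction (0%), with 282 genes (1.5%) and 0 of the 8 members at an unadjusted p under 0.05. Taken singly, KO1 was at least 1.5-fold above WT-LF for Prm1, Tnp1, Tnp2 and Smcp (3.38% of all genes), with Smcp at 1.5-fold just inside. KO2 was at least 1.5-fold below it for Prm1, Smcp and Odf1 (3.44% of all genes) and above it for 0 of 5 (4.43%). Prm1 and Smcp met both conditions at once, as did 0.271% of all genes. Counting both directions and the Svs genes, 6 of 8 members were at least 1.5-fold from WT-LF on KO1 (6.89% of all genes) and 6 of 8 on KO2 (7.87%).

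Between the diets, the sperm genes had no common direction. The WT-HF minus WT-LF difference was 0.12 for Prm1, 0.33 for Tnp1, 0.44 for Tnp2, -0.63 for Smcp and -0.46 for Odf1, each smaller than that gene's distance between the KO arrays. At 1.5-fold or more, 1 of 5 was lower on the high-fat array (Smcp; 3.13% of all genes) and 0 of 5 were higher (5.38% of all genes). With 1 array per diet there is no replicate check. A limma test can be had only by assuming that each wild type array varies as KO1 and KO2 did. So run, as a test added after the data were seen, it called 0 of all genes in either direction (0%), with 269 genes (1.43%) and 0 of the 8 members at an unadjusted p under 0.05.

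The 3 seminal vesicle genes had another order, from high to low WT-HF, WT-LF, KO1 and KO2. Svs2, the plug protein gene, was at 5.95 and 3.94 on KO1 and KO2, against 8.59 on WT-HF and 7.40 on WT-LF. Svs5 was at 6.74 and 5.16 on the KO arrays, 8.90 on WT-HF and 7.61 on WT-LF. Svs4, whose range was narrower, was at 5.27 and 4.53 on the KO arrays, 6.38 on WT-HF and 5.46 on WT-LF. In all 3 both KO arrays lay below both wild type arrays, as in 19.4% of all genes; KO and wild type arrays did not overlap, in either direction, in 32.6%. The full order was met in 2.62%. Svs4 lay under the array median on all but WT-HF, and Svs2 and Svs5 on KO2.

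Against WT-LF, Svs2 and Svs5 were at least 1.5-fold lower on both KO arrays, as were 0.675% of all genes, and 0 of the 8 members were higher on both (0.850% of all genes). The KO mean of Svs2 was 4.94 ± 1.42 (SD, n = 2), a difference of -2.45 with a standard error of 0.90, or 5.48-fold lower. Svs5 had a KO mean of 5.95 ± 1.12 (SD, n = 2), a difference of -1.66 with a standard error of 0.72, or 3.16-fold lower. Svs4 had a difference of -0.57 with a standard error of 0.39. None of the 3 passed the threshold in limma, with unadjusted p = 0.0521, 0.0817 and 0.217 for Svs2, Svs5 and Svs4 and an adjusted p = 0.9999 for each. The size for Svs2 ranged from -1.45 on KO1 to -3.46 on KO2, and for Svs5 from -0.87 to -2.45, so it was larger on KO2. KO1 alone was at least 1.5-fold lower for Svs2 and Svs5 (3.51% of all genes). The distance between the KO arrays was 2.01 for Svs2, 1.58 for Svs5 and 0.74 for Svs4.

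On the high-fat diet all 3 seminal vesicle genes were higher than on the low-fat diet in wild type fat, Svs5 2.45-fold, Svs2 2.28-fold and Svs4 1.89-fold, where 5.38% of all genes were at least 1.5-fold higher. The differences of 1.29, 1.19 and 0.92 had a median of 1.19, against 0.01 over all genes. In limma, under the same assumption, the standard errors of these differences were 0.83 for Svs5, 1.04 for Svs2 and 0.45 for Svs4, with an adjusted p = 0.9999 for each. For Svs2 and Svs5 the diet differences were smaller than the distance between the KO arrays, and for Svs4 larger. Sperm and seminal vesicle genes shared their low point, KO2, and parted on WT-HF. That array was the top for the Svs genes and lay between the KO arrays for the sperm genes. For Smcp and Odf1 it lay near KO2, at 8.09 against 7.84 and 7.40 against 7.12.

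**Figure D2:**
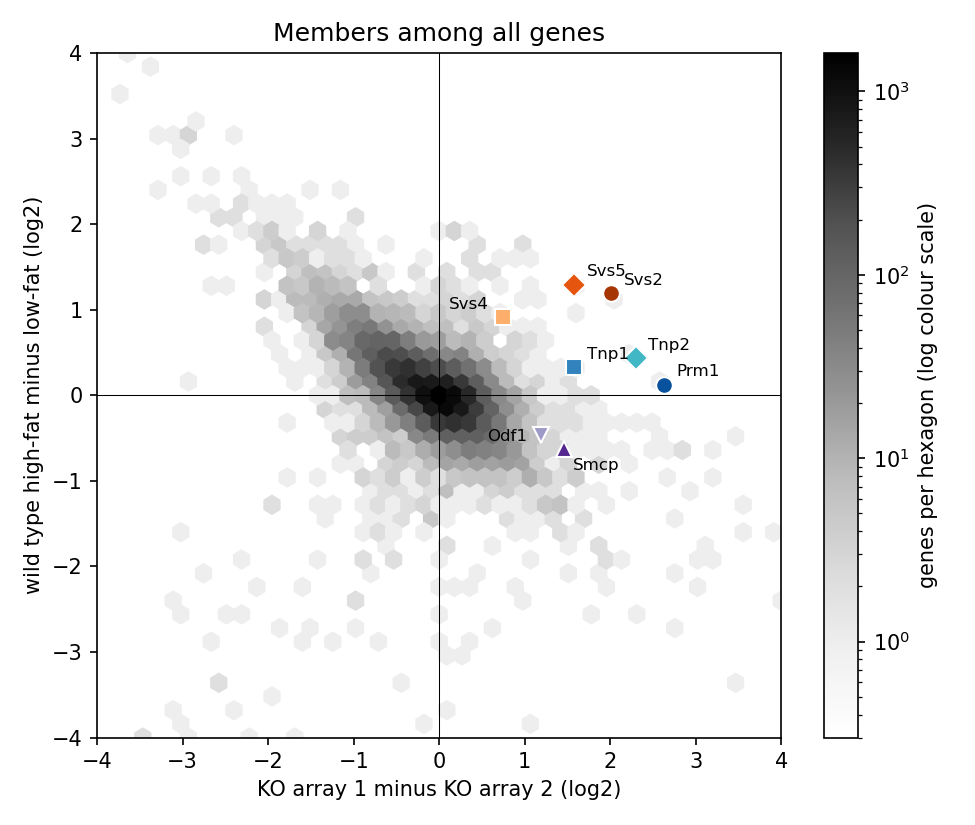
Difference between KO1 and KO2 (horizontal axis, log2) against the difference between WT-HF and WT-LF (vertical axis, log2) for all genes in grey hexagons, darker for more genes, with the 8 measured members as coloured symbols; 32 genes lie outside the plotted range of 4 in either direction. All 8 members lie to the right of 0, from 0.74 for Svs4 to 2.63 for Prm1, while the Svs genes lie higher, from 0.92 to 1.29, than the sperm genes, from -0.63 to 0.44.

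Within each set the members resembled each other to differing degrees. Likeness was measured as the Euclidean distance between log2 profiles over the 4 arrays, each centred on its mean, and compared with 16267 protein-coding genes with a settled name. Prm1 and Tnp2 were 0.41 apart, and 0 of those genes came nearer to either. Smcp and Odf1 were 0.24 apart, with 5 genes nearer to Smcp and 13 nearer to Odf1, and both stood farther from Prm1, at 0.98 and 1.10. Svs2 and Svs5 were 0.81 apart, again with 0 genes nearer to either, and Svs4 was 2.22 from Svs2 and 1.43 from Svs5. Seen from Svs2 and Svs5, 2 and 0 genes came nearer than Svs4; seen from Svs4, whose range is small, 16059 genes came nearer than Svs2 and 13137 nearer than Svs5. Likewise 10566 genes came nearer to Odf1 than Prm1 did. With 4 arrays such distances are a description, and profiles of small range lie near many others.

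Outside the 9 genes, the profiles nearest to Prm1 were those of Ptges, a prostaglandin E synthase (distance 0.55), the lipid-binding protein gene Sec14l2 (0.71) and Ckm, the creatine kinase of muscle (0.74). The same 3 genes were nearest to Tnp2. Ptges was at 10.25 and 8.12 on KO1 and KO2, 8.68 on WT-HF and 9.10 on WT-LF. Nearest to Tnp1 were Llcfc1, which encodes a sperm membrane fusion protein (0.34), the stefin gene Stfa1 (0.34) and the Bcl2 family gene Bcl2l14 (0.35). Nearest to Smcp were the homeobox genes Hoxb7 (0.08) and Hoxb6 (0.17) with Ildr1 (0.15), and nearest to Odf1 were Prdm10 (0.11), the kinesin gene Kif5c (0.13) and Rsph9, a radial spoke protein of cilia and sperm tails (0.13).

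Among the nearest to the seminal vesicle genes was their cluster neighbour Svs6, at 2.28 from Svs2, 0.40 from Svs4 and 1.51 from Svs5. Svs6 was at 3.67 and 3.44 on KO1 and KO2, 5.23 on WT-HF and 4.17 on WT-LF, under the array median on all 4. Svs1 was the third nearest to Svs4, at 0.43, with levels of 4.19, 3.85, 5.20 and 4.73 on KO1, KO2, WT-HF and WT-LF. Serpina6, the plasma carrier of glucocorticoids, was at 0.34 from Svs4, 1.44 from Svs5 and 2.19 from Svs2. The others were Lrmda, at 1.76 from Svs2, and the Wnt antagonist gene Sfrp2, at 1.66 from Svs5.

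The wider lists of the same tissues had smaller median differences than the members. Of 38 further sperm and spermatid genes, 37 were measured, and 23 of them lay under the array median on all 4 arrays, as did 39.4% of all genes, the share to set beside each such count below. On KO1, 11 were at least 1.5-fold higher than on KO2 (4.00% of all genes) and 1 was lower (9.69%). The median was 0.24, against 1.58 for the 5 sperm members. The order of the sperm members, KO1 highest and KO2 lowest, held for 17 of the 37 and for 9.56% of all genes. Oaz3, the antizyme of spermatids, was at 6.53 and 5.38 on KO1 and KO2, 5.66 on WT-HF and 5.91 on WT-LF, and Gapdhs, the glycolytic enzyme of the sperm tail, at 7.75 and 6.87, 7.14 and 7.79 in the same array order. Prm3, which lies between Tnp2 and Prm2 on chromosome 16, was at 5.12 and 5.0 on the KO arrays and 5.02 and 5.03 on WT-HF and WT-LF, and the spermatid linker histone gene Hils1 was at 4.72, 4.58, 4.70 and 4.79. Oaz3, Prm3 and Hils1 were chosen after their values were seen. In limma 0 of the 37 passed the threshold for KO against WT-LF. The same fit called 0 of all 18820 genes, so this count tells nothing about the list.

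By the rule on list genes, the spermatid list also gave Fhl5, a CREM coactivator (8.00 and 8.34 on the KO arrays, 8.12 on WT-HF and 8.62 on WT-LF), the tail fibre gene Odf2 (7.55, 7.07, 7.42 and 7.50) and Gsg1 (6.90, 6.01, 6.59 and 5.93). Odf2 and Fhl5 are also active outside the germ line. Odf2 had its ends in the order of the sperm members, with KO1 highest and KO2 lowest, and Fhl5 and Gsg1 did not.

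Of 18 meiotic and earlier germ cell genes, 15 lay under the array median on all arrays. At least 1.5-fold higher on KO1 than on KO2 was 1 (4.00% of all genes), while 1 was lower (9.69%). The higher one was Mael, of the piRNA pathway, at 5.59 and 4.60 on KO1 and KO2, 5.56 on WT-HF and 4.77 on WT-LF. The lower one was the synaptonemal complex gene Sycp3, at 6.41 and 8.78 on KO1 and KO2, 9.31 on WT-HF and 7.11 on WT-LF. Of 13 Sertoli and Leydig cell genes, the supporting and steroid-making cells of the testis, 11 lay under the array median on all arrays. At least 1.5-fold higher on KO1 than on KO2 were 0 (4.00% of all genes). In the other direction there was 1 (9.69%), Cyp17a1, with a KO1 minus KO2 difference of -2.97. Exceptions in level were Sox9, also made outside the testis (6.22, 6.52, 6.47 and 6.09), and the steroidogenic enzyme gene Cyp17a1 (4.77, 7.74, 5.60 and 7.14), each in the order KO1, KO2, WT-HF and WT-LF.

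Of the 10 other seminal vesicle genes measured, 8 lay under the array median on all arrays. WT-HF was highest for 6 of 10 (32.9% of all genes) and KO2 lowest for 6 of 10 (25.3%), with both in 5 of them, a pattern met in 4.60% of all genes. The KO arrays lay below both wild type arrays for 5 of 10, against 19.4% of all genes. By size the list went both ways between the diets, unlike the 3 Svs members. On WT-HF, 2 of 10 were at least 1.5-fold higher than on WT-LF (5.38% of all genes) and 2 of 10 lower (3.13%). At least 1.5-fold lower than WT-LF on both KO arrays were 0 of 10. With 0.675% of all genes so called, a count of 0 in 10 tells little. The cluster neighbours Svs3b (6.02 and 5.07 on KO1 and KO2, 6.35 on WT-HF and 6.11 on WT-LF) and Svs3a (4.24, 3.81, 4.59 and 3.79) are near copies of each other, so their signals may be shared. Ceacam10, an adhesion molecule gene of the gland, ran the other way, at 5.82 and 7.15 on the KO arrays, 5.56 on WT-HF and 6.87 on WT-LF. Of 9 prostate genes, 2 of which are also on the seminal vesicle list, 7 lay under the array median on all arrays. The prostate secretory genes Pbsn (3.38, 3.29, 3.26 and 3.29) and Msmb (3.50, 3.45, 3.53 and 3.66) were near the bottom of the range on KO1, KO2, WT-HF and WT-LF.

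**Figure D3:**
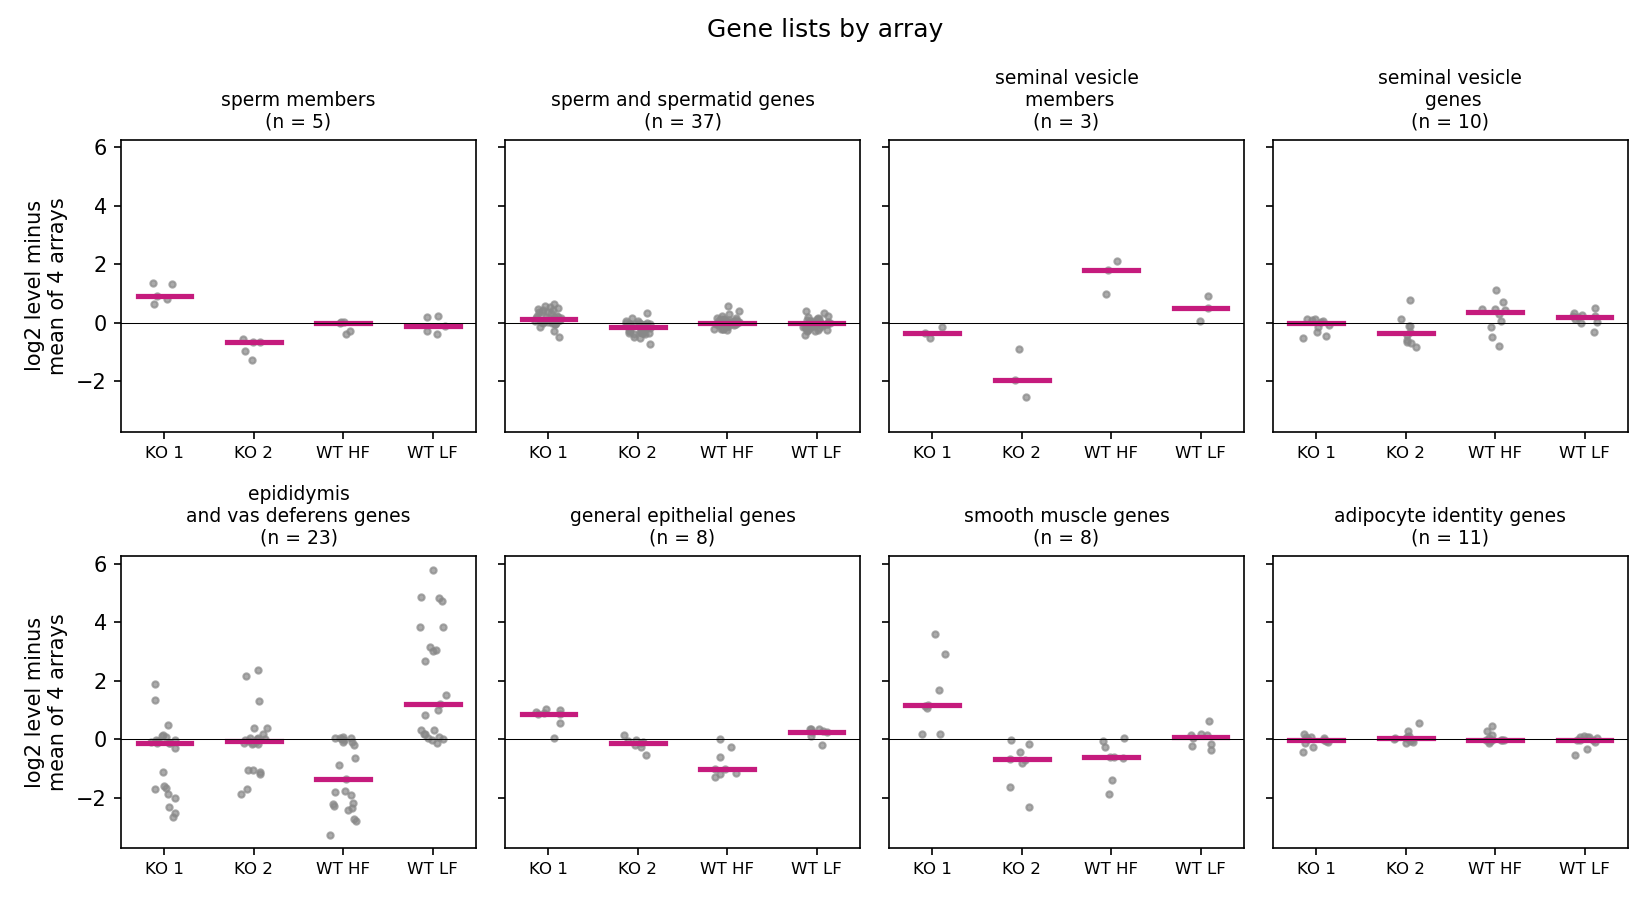
Log2 level of each gene minus its mean over the 4 arrays (vertical axis), by array and gene list, with grey points for genes and a coloured bar for the list's median; KO 1 and KO 2 are the KO low-fat arrays, WT HF is WT-HF and WT LF is WT-LF. The sperm members, smooth muscle and epithelial lists are highest on KO 1 (medians 0.92, 1.16 and 0.88), the seminal vesicle members on WT HF (1.80) and the epididymal list on WT LF (1.19).

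Of the epididymis and vas deferens genes, 23 of 26 were measured, and their high array was not that of the members: 18 of 23 were highest on WT-LF (25.0% of all genes) and 14 of 23 were at least 1.5-fold lower on WT-HF than there (3.13%). Their summed intensity was 4033 on KO1 and 2453 on KO2, against 468 on WT-HF and 18077 on WT-LF. Such sums rest on a few high genes. Gene by gene, the median KO1 minus KO2 difference was -0.15. At 1.5-fold, 3 of 23 were higher on KO1 than on KO2 (4.00% of all genes) and 7 were lower (9.69%). Spint4, an epididymal protease inhibitor, was at 3.25 and 4.43 on the KO arrays and 3.19 on WT-HF, against 11.35 on WT-LF. The lowest array for 15 of the 23 was WT-HF (21.0% of all genes), where Svs2, Svs4 and Svs5 were highest. Spink8, of the same list, was at 11.68 and 9.63 on KO1 and KO2, 6.52 on WT-HF and 11.30 on WT-LF. It was the highest gene of the list on both KO arrays and so weighs most in the sums there.

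Smooth muscle and epithelial genes were mostly highest on the array where the sperm genes were. All 8 smooth muscle genes were highest on KO1, where 27.3% of all genes were highest. In 7 of the 8 KO2 was also lowest, the order of the sperm members, met in 9.56% of all genes. At least 1.5-fold higher on KO1 than on KO2 were 6 of 8, against 4.00% of all genes, with a median of 1.86. Their summed intensity was 11180 on KO1 and 4950 on KO2, against 5258 on WT-HF and 5484 on WT-LF, and Cnn1, a contractile protein, was at 11.03, 5.12, 5.59 and 8.05 in that array order. Of 8 epithelial genes, 7 were highest on KO1 and 7 were at least 1.5-fold higher there than on KO2, with a median of 0.93, against the same 27.3% and 4.00% of all genes. The order with KO1 highest and KO2 lowest held for 0 of the 8 epithelial genes. WT-HF was the lowest array for 7 of the 8 (21.0% of all genes). Their summed intensity was 1942 and 928 on KO1 and KO2, against 560 on WT-HF and 1257 on WT-LF, and Krt18 was at 8.74, 7.62, 6.55 and 8.11. The summed intensity of the 5 sperm genes was 2231 and 598 on KO1 and KO2, against 960 on WT-HF and 1110 on WT-LF, and that of the 3 Svs genes 207 and 74.1, against 945 and 408. The part of these other tissues in the levels of the members was not tested.

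Olfactory receptor genes, most of them of low signal, were higher at the median on the KO arrays than on the wild type arrays. The 989 olfactory receptor genes, a list drawn up by symbol once the values were known, of which 947 lay under the array median on all arrays, had a median difference of 0.35 on KO1 and 0.21 on KO2, and of -0.03 on WT-HF, each minus WT-LF. At least 1.5-fold above WT-LF were 234 of 989 on KO1 (3.38% of all genes), 95 on KO2 (4.43%) and 73 on both (0.850%). At least 1.5-fold below it were 0 on KO1 (3.51%) and 0 on KO2 (3.44%). Between KO1 and KO2 their median was 0.12, and 40 of 989 were at least 1.5-fold higher on KO1, a share near the 4.00% of all genes. The 5 sperm members stood 1.19 to 2.63 apart between those arrays. Other lists with most genes under the array median had no shift common to all of these lists. Minus WT-LF, their medians on KO1 and KO2 were 0.06 and -0.02 (meiotic), -0.04 and 0.02 (Sertoli and Leydig) and 0.04 and -0.08 (prostate). For the spermatid list they were 0.18 and -0.11. For the other seminal vesicle genes they were -0.21 and -0.43, lower than WT-LF on both KO arrays. Tnp1, Tnp2 and Svs4 have levels near or under the array median. For these, the part of a shift like that of the olfactory receptor genes was not tested.

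Probe set 10437680, listed for Prm2 and Wdr19 together and credited to neither, was at 10.12 and 8.17 on KO1 and KO2, 8.88 on WT-HF and 8.51 on WT-LF, so that it too was highest on KO1 and lowest on KO2.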

How the data were processed

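RNA of epididymal fat, pooled over mice, was hybridized to 4 whole-transcript arrays, from 100 ng each. The authors deposited 1 linear intensity per probe set and array, summarised per the submitters' processing notes by RMA (R 2.15.0). Their build and annotation release: not given in the sources used here. Precision is limited by the number of arrays, and no detection calls were used. Intensities were log2 transformed. Of 35556 probe sets, 21218 had 1 gene symbol, 1881 several and 12457 none listed; per gene the probe set with the highest mean was kept, giving 18820 genes. Each measured member had 1 such probe set, and 7 of the 8 passed the level filter of 5.45 that was tried as an alternative.

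KO and wild type low-fat arrays were compared with limma 3.58.1 in R 4.3.3 over all genes (a mean for each of 3 groups, eBayes, two-sided, Benjamini-Hochberg, threshold 0.05). Only KO1 and KO2 gave a residual degree of freedom (1), and each single wild type array is assumed to share their spread. The steps were tested on simulated data. Other comparisons were described by size, at 1.5-fold or more. Figures were drawn with matplotlib 3.10.9. Named genes were the members, the 3 nearest profiles to each (for a range of at least 1 log2 unit), Cd1d1, and per list the 3 genes with the largest difference between WT-LF and the mean of the other arrays and the 2 of highest mean level, of which the text gives some; the list genes Oaz3, Prm3, Hils1, Pbsn and Msmb were chosen after their values were seen. The members and lists were chosen with earlier results of these data known. Gene lists not matched by symbol were matched through RefSeq synonyms.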

Additional observations from a re-analysis of the deposited data

How the results depend on the processing

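No member passed the threshold under any alternative run (lowest adjusted p = 0.9999 in limma), which in a design that calls so few genes is no sign of stability. When the level filter, probe set rule, scaling or variance model was changed, member differences moved by at most 0.12. In limma with the spread of the KO pair, a test added after the data were seen, 0 genes passed the threshold between the diets and 269 had an unadjusted p under 0.05. The count of all genes past the threshold was 0 in the reported fit, 5 after the level filter, 8 with a variance trend and 282 at an unadjusted p under 0.05. At 2-fold, 525 genes differed between the diets, 72 on both KO arrays and 710 between the KO arrays, against 1601, 287 and 2575 at 1.5-fold. With the level filter the counts at 1.5-fold were 1303, 153 and 2177 in the same order. Why the count on both KO arrays fell by the larger share was not tested. At 2-fold, 0 members were lower on the high-fat than on the low-fat array and 1 was lower on both KO arrays. The shares of all genes in 1 direction at 2-fold were not counted, so these member counts have no background. With either KO array left out, an alternative added for counts after the data were seen, 1297 to 1482 genes were counted in either direction at 1.5-fold. With KO2 alone, 6 of 8 members were lower (3.44% of all genes) and 0 higher (4.43%). With KO1 alone, 2 of 8 were lower (3.51%) and 4 higher (3.38%). With 1 KO array at a time, the KO difference ran from -1.15 to 1.48 for Prm1, -0.37 to 1.21 for Tnp1 and -0.58 to 1.72 for Tnp2. It ran from -0.88 to 0.59 for Smcp and -0.74 to 0.45 for Odf1, turning its direction in all 5. For Svs2, Svs4 and Svs5 it stayed negative, from -3.46 to -1.45, -0.94 to -0.20 and -2.45 to -0.87. The cause was not tested. No paired analysis was possible because the wild type groups have 1 array each. Low signal limits Tnp1 and Svs4 most.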

Other observations

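The array with the highest member of each tissue differed by tissue: KO1 for sperm genes, WT-HF for seminal vesicle genes and WT-LF for epididymal genes. The matrix protease gene Mmp7, a prostate list gene also made in other epithelia, was at 4.28 and 7.25 on KO1 and KO2, 5.16 on WT-HF and 5.06 on WT-LF. Fgf10, of the same list and a growth factor of fat and other mesenchyme, was at 9.24 and 9.21, 9.37 and 9.55 in that array order. Zbtb16, listed as a marker of spermatogonia but not made in them alone, was at 10.98 and 10.81 on the KO arrays. It was at 10.23 on WT-HF and 10.29 on WT-LF, with an adjusted p = 0.9999 in limma for KO against WT-LF. Of its list of 18 germ cell genes, 15 lay under the array median on all arrays, as did 39.4% of all genes. The cell source of the Zbtb16 signal was not tested.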
